A study of Homo sapiens with 6 samples.

Results

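The IGF2BP, LIN28B and HMGA genes are a set of 6 protein-coding genes (IGF2BP1, IGF2BP2, IGF2BP3, LIN28B, HMGA1 and HMGA2) that are active in fetal tissue and are linked by the let-7 microRNAs. They were picked by gene symbol from the 37192 genes whose transcript could be matched to the GENCODE annotation, and each had 1 counted transcription unit (TU), that is, 1 transcript standing for the gene. The libraries came from untreated K562 cells, a human chronic myelogenous leukemia line, grown in a single flask in RPMI-1640 with fetal bovine serum. Precision run-on sequencing (PRO-seq), which maps RNA polymerases that are engaged in synthesis, was performed in 2 libraries, and RNA-seq of total RNA depleted of ribosomal RNA was performed in 4 libraries. There was no treatment and no second genotype, so the comparison for each gene is steady-state RNA against nascent transcription in this line. Where an RNA pool is at equilibrium, the ratio of RNA level to synthesis rate is proportional to half-life. The ratio of RNA-seq to PRO-seq level is called the relative half-life here. It has no unit and is read against the median mRNA. In the study, estimates from previously published libraries were less variable and closer to published half-lives than those from these libraries. For that reason the main analyses of the study used the published libraries. The study states that PRO-seq signal reflects elongation rate as well as transcription rate. After a correction on a subset of genes, it judged that the effects appear limited. The link of intron length with half-life was its main exception. Elongation was not corrected for here, and the spans of the members ran from 9359 bp (HMGA1) to 181913 bp (IGF2BP2).

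LIN28B is an RNA-binding protein that blocks the processing of let-7 precursors. The IGF2BP proteins bind mRNAs and are known to protect many of them from decay, while HMGA1 and HMGA2 are architectural proteins that bind AT-rich DNA. Mature let-7 is abundant in most adult tissues, pairs through its seed with sites in 3′ UTRs and represses the mRNAs that carry them. HMGA2, LIN28B and IGF2BP1 are textbook let-7 targets, so that LIN28B and let-7 repress each other.

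The mature let-7 sequences are shown first because a single seed defines the sites searched for in the 6 genes. From the RefSeq records of GRCh38.p14, 9 mature microRNAs of 12 hairpin genes shared the same bases 2 to 8, given here in capitals for 4 of them.
hsa-let-7a-5p: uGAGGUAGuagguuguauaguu
hsa-let-7g-5p: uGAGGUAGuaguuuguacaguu
hsa-let-7i-5p: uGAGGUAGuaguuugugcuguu
hsa-miR-98-5p: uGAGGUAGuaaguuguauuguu

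The match to this seed in an mRNA is CTACCTC, searched for on the sense strand of the transcript only. It occurred once or more in the canonical 3′ UTR of all 6 genes. IGF2BP1, LIN28B and HMGA2 each held 4 matches, while IGF2BP2, IGF2BP3 and HMGA1 each held 1. The match nearest the stop codon of each gene is printed 5′ to 3′ with the preceding 15 bases and the base that follows, the match being in capitals (GENCODE transcripts, GRCh37).
LIN28B, chr6:105526687-105526709, plus strand: acccggttgcaaagtCTACCTCa
IGF2BP1, chr17:47128423-47128445, plus strand: tgtgtgcgaagtaaaCTACCTCa
IGF2BP2, chr3:185362008-185362030, minus strand: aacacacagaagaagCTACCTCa
IGF2BP3, chr7:23351414-23351436, minus strand: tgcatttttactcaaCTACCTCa
HMGA2, chr12:66357078-66357100, plus strand: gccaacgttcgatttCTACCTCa
HMGA1, chr6:34213606-34213628, plus strand: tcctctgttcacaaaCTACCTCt

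In 5 of these 6 sites the match was followed by A, the longer form (CTACCTCA) that Argonaute proteins are known to favour. HMGA1 was the exception. IGF2BP1 had 3 matches followed by A among its 4, LIN28B had 2, and HMGA2 had 1. Of all 19403 canonical 3′ UTRs, 9.787% held at least 1 match and 3.752% held the longer form. Only 12 of them, or 0.062%, held 4 or more matches, and IGF2BP1, LIN28B and HMGA2 are 3 of those 12. The members were grouped for their known link to let-7, so their matches are no independent sign of that link. The length of the 3′ UTR differed among the members. The 3′ UTR of IGF2BP1 ran to 6701 bases (percentile 96.7 of all canonical 3′ UTRs) and that of LIN28B to 4549 bases (percentile 91.5), against 1347 bases for HMGA1 (percentile 56.6). HMGA2 held its 4 matches in 2999 bases, close to the 2401 bases of IGF2BP2 and the 2153 bases of IGF2BP3 with 1 match each. A match is a string of letters, not a measured binding event.

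**Figure D1:**
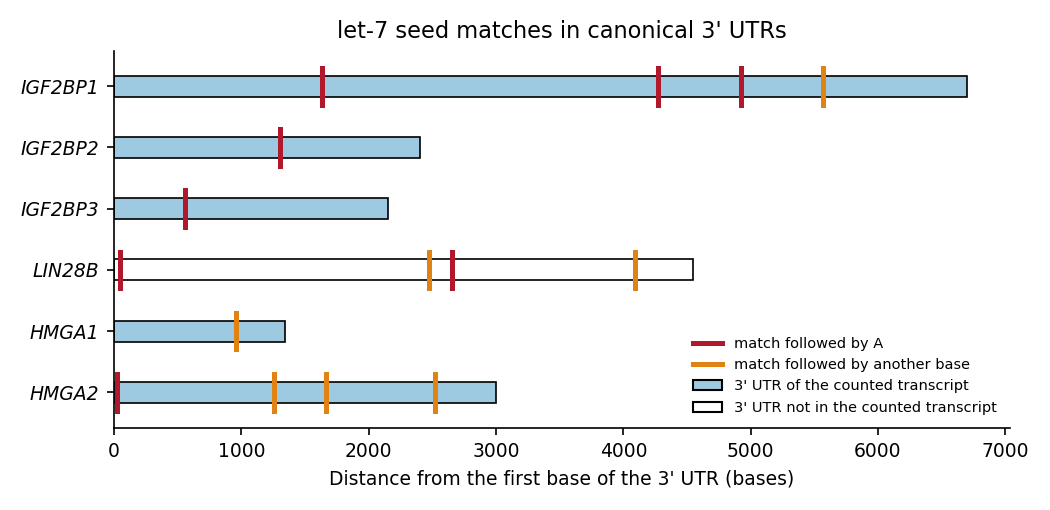
Position of each let-7 seed match (vertical marks) along the canonical 3′ UTR of the 6 genes, in bases from its first base, drawn to scale. IGF2BP1, LIN28B and HMGA2 carry 4 marks each, and the open bar shows that the 3′ UTR of LIN28B lies outside the transcript that was counted.

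The matches sat at different places along the 3′ UTRs, as the map of seed matches shows. HMGA2 had its first match 21 bases into the 3′ UTR and LIN28B 44 bases in, whereas the first match of IGF2BP1 came 1632 bases in. For 5 of the 6 genes the counted transcript was the canonical one. LIN28B was counted on a different transcript (ENST00000635857), which has no annotated 3′ UTR or stop codon, so none of its 4 canonical 3′ UTR matches lay in counted sequence. The coding sequence of LIN28B held 1 further match, and the other 5 genes had none in theirs. Among the annotated isoforms of HMGA2, the one with the longest 3′ UTR (7421 bases) had 0 matches.

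Read depth was sufficient for 5 of the 6 genes. The RNA-seq libraries held 5732780 to 9002746 reads on TUs and the PRO-seq libraries 6993816 and 7245632. All 7 erythroid leukemia markers were present, from EPOR at 10.8 TPM in RNA-seq and GATA1 at 155 TPM to HBG2 at 6287 TPM, and CDKN2A, which is deleted in K562, had 1 RNA-seq and 5 PRO-seq reads. Of the markers of other cells, CD3E, MS4A1 and ALB lay at or under 0.483 TPM, and EPCAM reached 119.8 TPM in RNA-seq (11.6 TPM in PRO-seq). In bulk libraries, fewer expressing cells and less RNA per cell cannot be told apart. Levels are given as TPM, the length-scaled share of a library's transcripts: exon length for RNA-seq, and for PRO-seq the span of the TU less 500 bp at each end.

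LIN28B had the highest ratio of RNA-seq to PRO-seq level among the 6 genes. It lies on GRCh37 chr6:105384491-105526477, and its RNA-seq levels were 93.3, 93.8, 90.7 and 95.5 TPM against PRO-seq levels of 41.2 and 38.3 TPM. All 4 RNA-seq values exceeded both PRO-seq values by more than the spread within either assay. Its RNA stood at percentile 90.2 of all mRNAs and its nascent signal at percentile 72.8. The relative half-life was 3.65 times that of the median mRNA (log2 1.87, SE 0.064, edgeR quasi-likelihood test with Benjamini-Hochberg adjustment, adjusted p = 7e-22).

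HMGA1 was the most abundant of the 6 genes in both assays. It lies on chr6:34204650-34214008, a span of 9359 bp that is short beside the other members. Its RNA-seq levels were 496.9, 443.1, 483.6 and 432.4 TPM, and its PRO-seq levels were 273.4 and 270.0 TPM. The groups did not overlap, and both assays put the gene above percentile 98 of mRNAs (98.4 in RNA-seq and 98.6 in PRO-seq). Its relative half-life was 2.66 times the median (log2 1.41, SE 0.06, edgeR adjusted p = 1.8e-19). The other members of the high mobility group are described further on.

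The 3 IGF2BP genes had PRO-seq TPM above RNA-seq TPM and lay below the median mRNA. TPM of the assays are scaled separately, so which TPM is higher does not set the side of the median. WDR82, for one, had 74.2 TPM in PRO-seq and 62.9 in RNA-seq and lay above the median (log2 0.401). IGF2BP1 (chr17:47074747-47133507) was measured at 62.2, 58.7, 64.0 and 55.2 TPM in RNA-seq and at 142.5 and 146.5 TPM in PRO-seq. IGF2BP3 (chr7:23349828-23510110) was at 50.7, 51.0, 51.6 and 53.2 TPM in RNA-seq and 97.4 and 100.7 TPM in PRO-seq. IGF2BP2 (chr3:185360918-185542830) was at 19.9, 19.0, 20.02 and 18.5 TPM in RNA-seq and 57.5 and 58.9 TPM in PRO-seq. In each of the 3 genes every PRO-seq library lay above every RNA-seq library, and IGF2BP2 had the lowest level of the family in both assays. The relative half-life was 0.809 times the median for IGF2BP3 (log2 -0.305, SE 0.042, edgeR adjusted p = 7.9e-08), 0.646 times for IGF2BP1 (log2 -0.63, SE 0.048, adjusted p = 2.4e-13) and 0.517 times for IGF2BP2 (log2 -0.95, SE 0.054, adjusted p = 2e-16).

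HMGA2 was at the edge of detection. It lies on chr12:66218263-66360071 and received 2, 1, 2 and 1 reads in the RNA-seq libraries and 16 and 9 reads in the PRO-seq libraries. These are 0.125, 0.0592, 0.186 and 0.0810 TPM in RNA-seq and 0.439 and 0.243 TPM in PRO-seq. The 6 RNA-seq reads together allow 0.0393 to 0.233 TPM and the 25 PRO-seq reads 0.220 to 0.502 TPM (exact Poisson intervals at 95%, covering counting error only). The gene failed both thresholds of the half-life estimate, which are 10 TPM for nascent signal and 1 TPM for RNA, so its value came from a wider fit, over every TU with 1 read or more in RNA-seq and in PRO-seq. There its log2 relative half-life was -0.40 with an SE of 0.746 (edgeR adjusted p = 0.65), and no difference from the median was detectable at this depth. Its low level was seen in nascent transcription as well as in RNA, at percentile 20.5 of mRNAs in PRO-seq and 31.1 in RNA-seq.

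**Figure D2:**
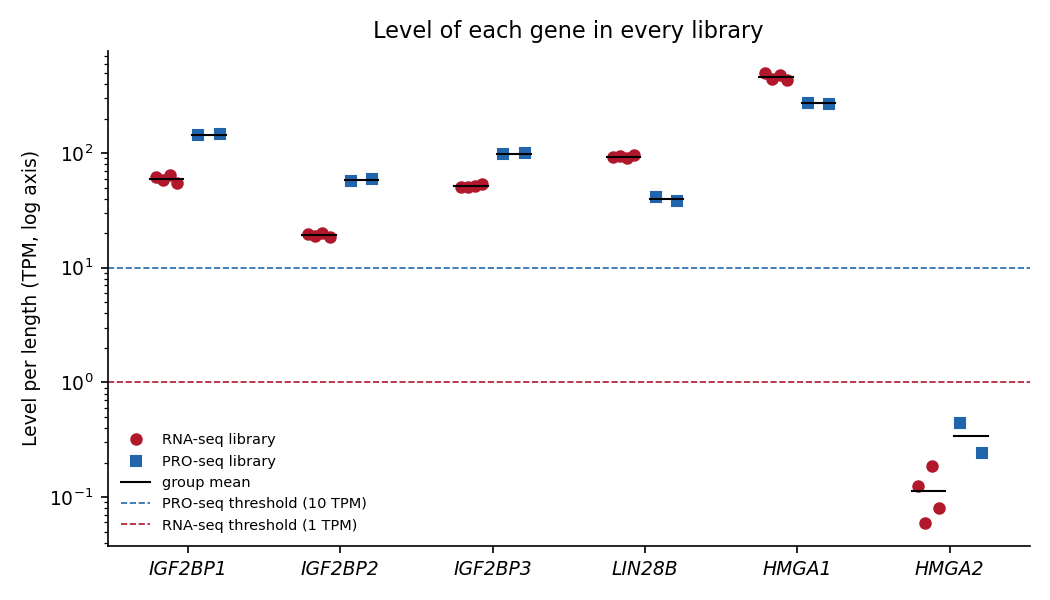
Level of each gene in every library, as TPM on a log axis, with RNA-seq libraries as circles (n = 4), PRO-seq libraries as squares (n = 2), bars at the group means and dashed lines at the thresholds of the half-life estimate. LIN28B and HMGA1 have circles above squares, the 3 IGF2BP genes squares above circles, and HMGA2 lies under both thresholds. TPM of the assays are scaled separately, so circles under squares do not by themselves place a gene below the median mRNA.

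Of the 5 members tested past the thresholds, 2 lay above the median mRNA and 3 below it. Over all 10053 TUs tested, 40.0% were called above and 50.4% below, so a call in one direction or the other was the common outcome and the split of 2 to 3 is near the background. Likewise, the 5 genes had RNA-seq and PRO-seq libraries that did not overlap on a log2 scale centred on each library's median mRNA, but this held for 91.8% of TUs. The exact two-sided permutation test over libraries gave p = 0.0667 for each of the 5 genes, the smallest value that 4 against 2 libraries allow, and p = 0.2 for HMGA2, whose groups overlapped.

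**Figure D3:**
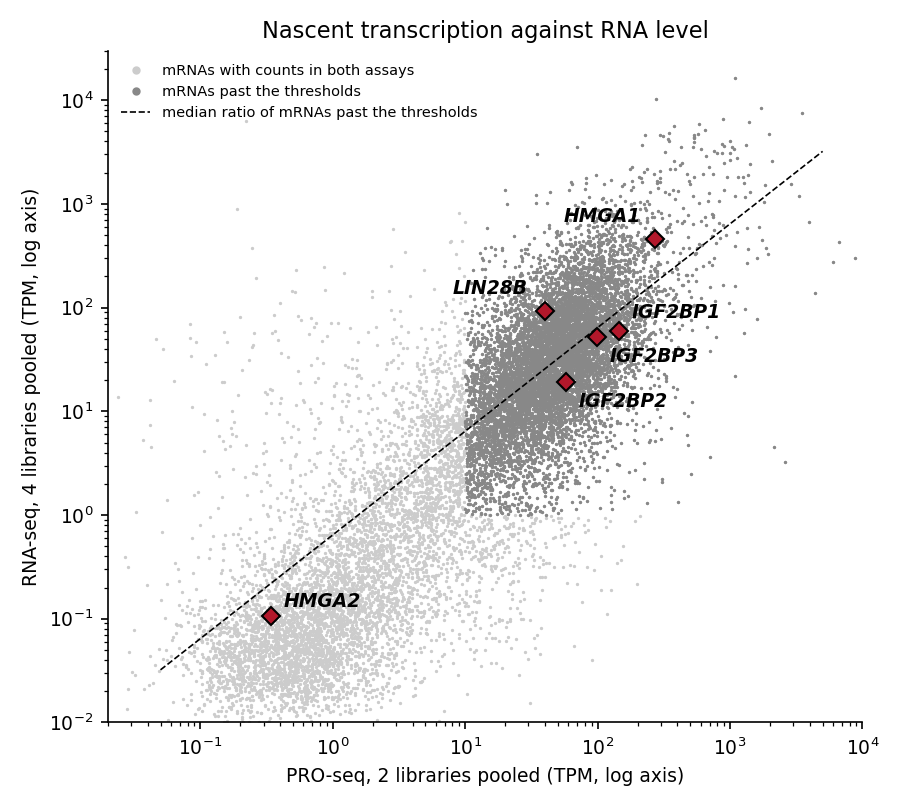
RNA-seq against PRO-seq level of mRNAs (pooled TPM, both axes log), with dark points past the thresholds, pale points with counts in both assays and diamonds for the 6 genes. LIN28B and HMGA1 lie above the dashed median ratio and the 3 IGF2BP genes below it.

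The direction of the IGF2BP genes against the median depended on which mRNAs set the median. In the wider fit, which set no TPM thresholds, the reference moved by 0.628 on the log2 scale, and 31.2% of 21100 TUs were called above and 38.0% below (42.0% and 33.4% of the mRNAs). IGF2BP1 then stood at -0.003 (edgeR adjusted p = 0.96), IGF2BP3 turned to the other side at 0.323 (adjusted p = 4.2e-11), and IGF2BP2 stayed below at -0.323 (adjusted p = 1.3e-07). LIN28B at 2.50 and HMGA1 at 2.04 stayed above, so that 3 members were above and 1 below. The order of the 5 genes did not rest on the reference. When each RNA-seq library was divided by each PRO-seq library, the ratio in all 8 combinations ran LIN28B, HMGA1, IGF2BP3, IGF2BP1, IGF2BP2 from highest to lowest. These combinations share libraries and are not replicates. The difference between neighbours over the 8 combinations was 0.316 to 0.637 (log2) between LIN28B and HMGA1, 1.53 to 1.87 between HMGA1 and IGF2BP3, 0.229 to 0.497 between IGF2BP3 and IGF2BP1, and 0.263 to 0.366 between IGF2BP1 and IGF2BP2.

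**Figure D4:**
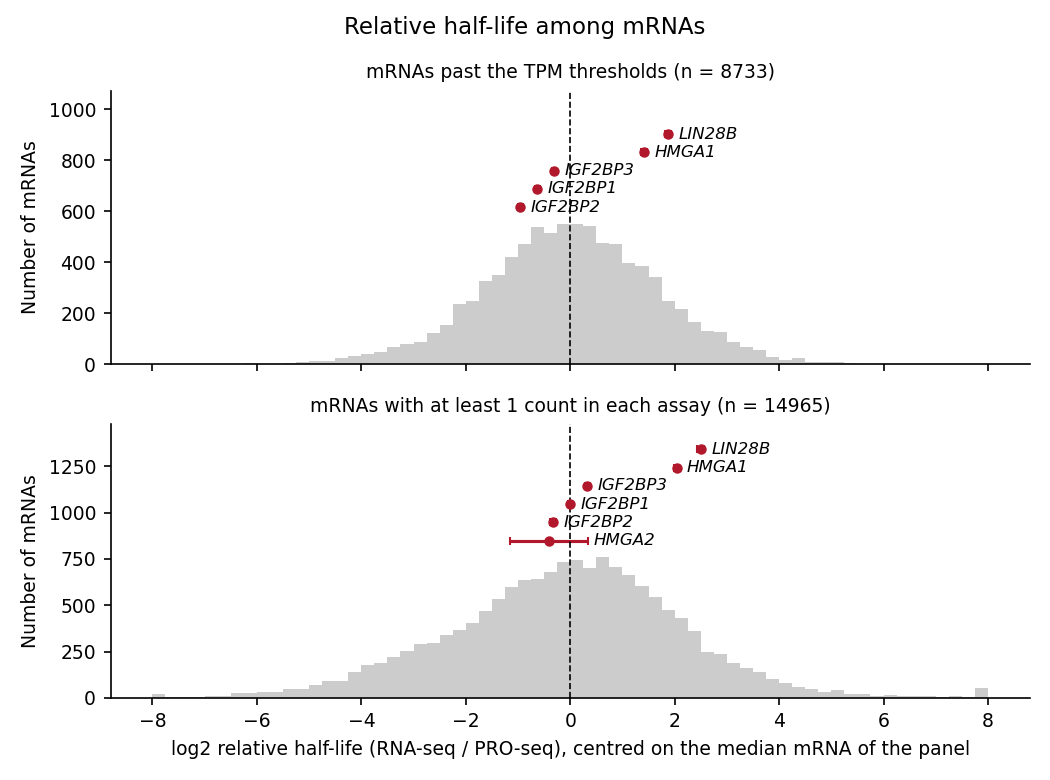
Distribution of log2 relative half-life (horizontal axis) over mRNAs (grey bars, number of mRNAs, values beyond 8 gathered in the end bars), with the members as points and bars of 1 SE, for mRNAs past the TPM thresholds (top, n = 8733) and with at least 1 count in each assay (bottom, n = 14965). LIN28B and HMGA1 lie to the right of the dashed median in both panels, and IGF2BP3 changes side.

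Differences between paralogs within a library need no such reference. In RNA-seq IGF2BP1 exceeded IGF2BP2 3.10-fold and in PRO-seq 2.48-fold, in 4 of 4 and 2 of 2 libraries, and its RNA-seq to PRO-seq ratio was 1.25 times that of IGF2BP2 (log2 difference 0.319, replicate SD 0.041). IGF2BP3 exceeded IGF2BP2 2.67-fold in RNA-seq and 1.70-fold in PRO-seq, and its ratio was 1.57 times that of IGF2BP2 (log2 difference of IGF2BP2 minus IGF2BP3 -0.649, replicate SD 0.081). The smallest gap in RNA level was the one between IGF2BP1 and IGF2BP3, 1.16-fold in RNA-seq and 1.46-fold in PRO-seq. The ratio of IGF2BP3 was 1.26 times that of IGF2BP1 (log2 difference of IGF2BP1 minus IGF2BP3 -0.329, replicate SD 0.119). Each of these differences was larger than the spread between libraries, and each gave p = 0.0667 by the exact two-sided permutation test, raw and after Benjamini-Hochberg adjustment over the 4 pairs, which is the smallest p this design can give.

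The HMGA paralogs differed far more in level than in ratio. HMGA1 exceeded HMGA2 4508-fold in RNA-seq and 832-fold in PRO-seq. The ratio differed by 2.44 on the log2 scale (replicate SD 0.879, exact permutation p = 0.0667), but HMGA2 rested on 6 RNA-seq reads in all, and with a pseudocount of 1 TPM the difference was 1.03.

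LIN28B changed its rank between the assays. In RNA-seq it was above all 3 IGF2BP genes in 4 of 4 libraries, 1.56-fold over IGF2BP1, 1.81-fold over IGF2BP3 and 4.83-fold over IGF2BP2. In PRO-seq it was below all 3 in 2 of 2 libraries, at 0.275 of IGF2BP1, 0.401 of IGF2BP3 and 0.683 of IGF2BP2. HMGA1 headed the order in both assays, at 4.97 times the RNA-seq level of LIN28B and 6.84 times its PRO-seq level. The RNA-seq order was therefore HMGA1, LIN28B, IGF2BP1, IGF2BP3, IGF2BP2, HMGA2, and the PRO-seq order was HMGA1, IGF2BP1, IGF2BP3, IGF2BP2, LIN28B, HMGA2. No neighbours in either order overlapped between libraries.

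How much of each gene was counted differed. The counted transcript had the longest span annotated for its gene in all 6 cases. The counted transcript of LIN28B starts 20491 bp upstream of the canonical one (ENST00000345080) and ends 4730 bp before it, and it counts 912 exon bases, of which 61.6% belong to the canonical transcript. The other 4884 canonical exon bases, the whole 3′ UTR among them, received no LIN28B count. The counted exons covered 15.4% of the union of annotated LIN28B exons, against 91.3% for IGF2BP1, 82.5% for HMGA1, 80.4% for IGF2BP2, 50.1% for IGF2BP3 and 27.3% for HMGA2. If the reads came only from exons and span shared with the canonical transcript, the log2 relative half-life of LIN28B would be 2.35 in place of 1.87. This calculation was added after the data were seen.

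Genes on the opposite strand overlapped 5 of the members. The largest exon overlap was that of MALSU1, which covered 35.6% of the exon bases of IGF2BP3 and had 1178 RNA-seq and 409 PRO-seq reads of its own. HMGA2-AS1, RPSAP52 and 1 unnamed TU together covered 33.0% of the PRO-seq window of HMGA2. For IGF2BP1, 2 TUs together covered 15.6% of the window. IGF2BP2-AS1 covered 9.14% of the window of IGF2BP2 and LIN28B-AS1 covered 3.07% of that of LIN28B. No other TU on the same strand overlapped a member. The strand setting of the counting was not given in the sources used here, but the counts bear on it. Of 4631 TUs whose PRO-seq window was covered whole by TUs of the opposite strand only, 58.2% had reads, against 2.35% of 2597 covered whole on the same strand. For RNA-seq exons the shares were 60.2% of 161 TUs and 7.01% of 314. Reads overlapping a TU on the other strand were thus still assigned to TUs in both assays.

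The mRNAs most like 4 of the members in level over the 6 libraries (smallest Euclidean distance in log2 TPM among 8723 mRNAs past the thresholds) were PRPF8 for IGF2BP1 (distance 0.121), JADE1 for IGF2BP2 (0.124), SKP1 for IGF2BP3 (0.114) and SPDL1 for LIN28B (0.135). PRPF8 is a core component of the spliceosome. HMGA2 had no near neighbour, since the closest candidate, ZNF761, was 9.71 away.

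Across tested mRNAs, the number of let-7 seed matches in the counted 3′ UTR went with a shorter relative half-life, and so did the length of the 3′ UTR. For length, the study saw the same direction with its PRO-seq estimates but the opposite one with half-lives from other methods. Its result came from models that fitted several features together, mainly on previously published K562 libraries. The medians here are unadjusted and come from the deposited libraries, so the measures are unlike. The study proposes that elongation rate may have biased its own estimates, and it cites further studies with a negative correlation. The median log2 relative half-life was 0.063 over 7285 mRNAs with 0 matches, -0.444 over 752 with 1 match and -0.879 over 105 with 2 or more. The share called below the median was 43.4%, 56.8% and 75.2%. The median 3′ UTR length in the same groups was 1097, 2824 and 5124 bases, and the part of length in the difference was not removed by a test. Among 3′ UTRs over 2000 and up to 4000 bases, the medians were -0.243 (1502 mRNAs), -0.429 (232) and -0.879 (27). Over 4000 bases they were -0.700 (699), -0.878 (257) and -0.907 (64), while over 1000 and up to 2000 bases mRNAs with 0 matches and with 1 match stood at 0.028 (1640) and 0.088 (162). Up to 1000 bases, the band with the most mRNAs, they stood at 0.471 (3444) and 0.092 (101). Length still rose with the number of matches inside each band, so the bands do not remove it. Median lengths were 418 and 600 bases in the shortest band and 1428 and 1506 in the next. They were 2747.5, 2849.5 and 3185 bases in the third band and 5189, 5647 and 7496.5 in the longest.

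**Figure D5:**
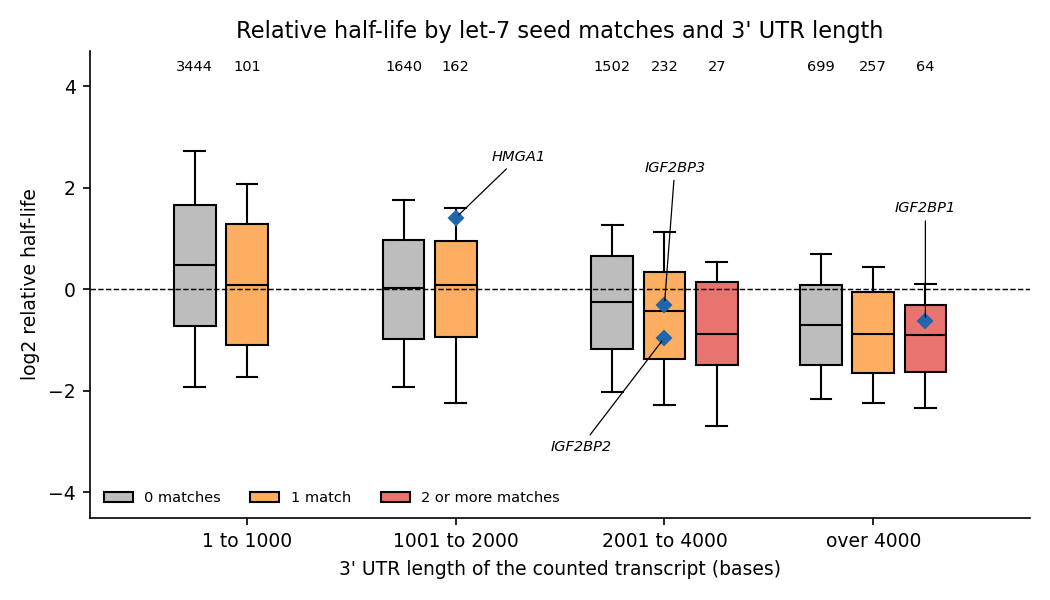
Log2 relative half-life of tested mRNAs by 3′ UTR length and number of let-7 seed matches, with boxes for quartiles, whiskers to the 10th and 90th percentiles, the number of mRNAs above each box, and groups under 20 left out. HMGA1 lies at 1.41 over a group median of 0.088, and IGF2BP1 at -0.63 lies inside the box of its group.

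The members fell on both sides of mRNAs with a like 3′ UTR. HMGA1, with 1 match, stood at 1.41 against a median of 0.088 in its band. IGF2BP3 at -0.305 and IGF2BP2 at -0.95 lay on either side of the median of -0.429 of theirs, and IGF2BP1 with 4 matches, at -0.63, was above the median of -0.907. LIN28B has no counted 3′ UTR and HMGA2 was under the thresholds, so neither enters these groups.

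Of 12 let-7 family hairpins in the annotation, 7 lay inside a counted TU on the same strand. The host genes of these 7 were transcribed in the same libraries, and transcription of the other hairpins was not examined. HUWE1, a ubiquitin ligase gene that hosts let-7f-2 and miR-98, had a nascent level of 101.3 TPM and an RNA level of 42.1 TPM (log2 relative half-life -0.625, SE 0.04, edgeR adjusted p = 3.5e-15). WDR82, which hosts let-7g, had 74.2 and 62.9 TPM (log2 0.401, SE 0.09, adjusted p = 0.00014). Of its counted transcript, 66.6% of the PRO-seq window and 56.1% of the exon bases lay in the canonical one. The noncoding host MIRLET7IHG had a nascent level of 75.9 TPM and an RNA level of 1.24 TPM (log2 -5.30, SE 0.121, edgeR adjusted p = 2.1e-26), and the longer TU of MIRLET7A1HG at 85.4 and 2.78 TPM (-4.30, SE 0.161, adjusted p = 5.8e-21). A second TU of MIRLET7A1HG had 1935 RNA-seq reads, or 37.2 TPM, and 0 PRO-seq reads. Its PRO-seq window was covered to 99.9% by the longer TU, and reads shared by TUs are not counted for either, so the value of this host is uncertain. These are levels of host transcripts, and mature let-7 was not measured.

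Of 17 genes listed for the machinery that makes, loads or blocks let-7, 16 were matched to a counted TU and 14 passed the thresholds. Of the 14, 4 were above and 9 below the median, with a list median of -0.462 against 0 over all mRNAs. Among all mRNAs, 45.4% were above and 44.9% below. TARBP2, a partner of Dicer, was at 2.31 and AGO1 at 0.209, while AGO3 was at -1.56 and TNRC6C, a protein that recruits deadenylases to Argonaute, at -2.24. DROSHA, which cuts primary transcripts, was at -1.15. In the wider fit the list stood at 8 above and 5 below. LIN28A, the paralog of LIN28B, had 19 RNA-seq and 11 PRO-seq reads and was at 0.351 TPM in RNA-seq, against 93.3 TPM for LIN28B.

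Of 24 other reported let-7 targets, 19 passed the thresholds, 10 above and 8 below, with a median of 0.193. These counts are near the share over all mRNAs (45.4% above and 44.9% below). CDC34, a ubiquitin-conjugating enzyme, was highest at 2.88, and BACH1 followed at 2.25, though only 6.12% of its PRO-seq window lay inside its canonical transcript. PLAGL2 at -3.85 and IRS2, an adaptor of insulin signalling, at -3.74 were lowest. MYC was at -1.18. DICER1, which is in this list and in the one before it, was at 0.193.

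Of the proteins that bind with IGF2BP1 to stabilise coding regions, and ELAVL1, all 5 passed the thresholds, 2 above and 3 below, with a median of -0.125, where 45.4% of all mRNAs were above and 44.9% below. In the wider fit they stood at 3 above and 1 below, with a median of 0.503. YBX1 was at 2.18, DHX9 at 1.31, SYNCRIP at -0.125, HNRNPU at -0.688 and ELAVL1 at -1.11. The range among the 5 was thus wider than that among the 3 IGF2BP genes. Only 23.5% of the counted exon bases of SYNCRIP and 52.0% of those of HNRNPU lay in the canonical transcript.

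Of 8 other high mobility group genes, 7 passed the thresholds and 5 were called above and 0 below, with a median of 0.904, beside 45.4% above and 44.9% below over all mRNAs. HMGN3 was at 3.14, HMGN4 at 1.80 and HMGN1 at 0.904, while HMGB3 at -0.198 (edgeR adjusted p = 0.062) and HMGN2 at -0.078 (adjusted p = 0.2) were not called. HMGB1 had the highest value, 5.11, but only 4.24% of its PRO-seq window lay inside the canonical transcript, since the counted one starts far upstream. For HMGN1, 40.1% of the counted exon bases lay in the canonical transcript.

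The fetal-type erythroid genes were abundant in RNA but had few countable PRO-seq reads. HBE1 had 38755 RNA-seq and 0 PRO-seq reads, HBG2 59343 and 29, and HBG1 14593 and 63, and at least 99.8% of the PRO-seq window of each was shared with other TUs on the same strand, whose common reads were not counted. HBG1 was the only one past the thresholds (log2 3.79), and since HBG1 and HBG2 are nearly identical in sequence their values are uncertain. HBB, the adult globin, had 3 RNA-seq reads, and BCL11A, a repressor of fetal globin, had 0 RNA-seq and 11 PRO-seq reads. Of their counted exon bases, 57.8% (HBB) and 19.2% (BCL11A) lay in the canonical transcript.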

How the data were processed

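The authors trimmed reads with cutadapt, aligned them to GRCh38 with HISAT2 and counted them per TU with HTSeq, one transcript standing for a gene. For tool versions and the strand setting, nothing was given in the sources used here. Deposited values were raw counts per transcript, with PRO-seq counted along the gene body and RNA-seq over exons. Of 42371 transcripts, 37339 (88.1%) were matched by ID to GENCODE v44 on GRCh37, from which symbols, lengths and coordinates were taken. The unmatched held 2.80% to 3.69% of counts on TUs. Records not assigned to a TU for any reason made up 66.5% to 68.6% of RNA-seq and 86.5% to 88.6% of PRO-seq records. These include the ambiguous ones (0.819% to 1.65% of records), and all were left out of library sizes.

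TPM used exon length for RNA-seq and span less 1000 bp for PRO-seq. Libraries were grouped by their titles. RNA-seq was tested against PRO-seq with edgeR 4.0.16 (R 4.3.3; quasi-likelihood test, TMM, length offsets), centred on the median mRNA, Benjamini-Hochberg adjusted over the 10053 TUs whose nascent level exceeded 10 TPM and RNA level 1 TPM, with a threshold of 0.05. HMGA2 took its value from a wider fit (21100 TUs, 1 read or more per assay). On simulated data in which 200 of 10053 TUs had a log2 change of 1, 94.0% were recovered. Single values were compared by an exact two-sided permutation test over libraries. As the libraries came from 1 flask, p-values measure the spread between libraries, which may be technical. RNA-seq replicates 1 and 3, and 2 and 4, were closer (chi-square per degree of freedom 1.118 and 1.119) than other pairs (1.741 to 2.108), and summing them was tried as an alternative. Named genes were the 6 members, the highest and lowest of each list, all let-7 hosts, the largest overlap and the nearest mRNA of each member; DROSHA, MYC, DICER1, LIN28A, HMGN1 and HMGN4 were named after their values were seen, and a few items are not reported here. Members and lists were chosen with earlier results of these data known, and the use of canonical 3′ UTRs, the bands of 3′ UTR length, the library combinations and the strand check were chosen after the data were seen. Alternatives were DESeq2 1.42.0, library totals, other thresholds, other windows and centring, a test of over 2-fold, a replicate block and leaving out each library. Computation used Python 3.11.15, pandas 2.3.3 and scipy 1.17.1.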

Additional observations from a re-analysis of the deposited data

How the results depend on the processing

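LIN28B and HMGA1 lay above the median mRNA with an adjusted p under the threshold in each of 15 alternatives with a test (log2 1.80 to 2.50 and 1.37 to 2.04). The value of LIN28B on lengths shared with its canonical transcript, 2.35, is a calculation with no test. With at least 1 summed count in each assay, IGF2BP1 moved to -0.003 (edgeR adjusted p = 0.96) and IGF2BP3 to the other side at 0.323 (adjusted p = 4.2e-11), and 6579 TUs were above and 8009 below the median in place of 4019 and 5068. Centred on the median of all tested TUs, a shift of 0.242 past the thresholds, IGF2BP3 was at -0.063 (edgeR adjusted p = 0.15). HMGA2, taken from the wider fit with its own shift, was at 0.149 (edgeR adjusted p = 0.88). In a test of a difference over 2-fold, 2141 TUs were above and 2998 below, and IGF2BP1 at -0.631 (adjusted p = 1.0), IGF2BP2 at -0.952 (adjusted p = 0.99) and IGF2BP3 at -0.305 (adjusted p = 1.0) were not called. DESeq2, library totals, stricter thresholds, a window with 500 bp removed and summed close pairs changed no call of a member. With the close RNA-seq pairs summed, the exact permutation test gave p = 0.333 for each paralog pair.

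Leaving out 1 library at a time gave log2 values of -0.659 to -0.597 for IGF2BP1, -0.975 to -0.934 for IGF2BP2, -0.321 to -0.293 for IGF2BP3, 1.80 to 1.94 for LIN28B and 1.37 to 1.44 for HMGA1, with 3870 to 4007 TUs above and 4898 to 5055 below the median. HMGA2 ranged from -0.835 to 0.116, the last without PRO-seq replicate 1, and was never called. Paralog differences ranged from 0.305 to 0.337 (IGF2BP1 minus IGF2BP2), -0.361 to -0.275 (IGF2BP1 minus IGF2BP3), -0.670 to -0.612 (IGF2BP2 minus IGF2BP3) and 2.02 to 2.86 (HMGA1 minus HMGA2), with p of 0.1 or 0.2 in exact permutation tests of that size.

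No pairing by replicate number was seen. The difference of replicate 1 minus 2 in RNA-seq and in PRO-seq correlated at r = -0.0118 over 9997 TUs. With libraries from a single flask, this check cannot exclude a pairing. The replicate block was fitted to replicates 1 and 2 of each assay only. Its values were -0.622 for IGF2BP1, -0.945 for IGF2BP2, -0.326 for IGF2BP3, 1.87 for LIN28B, 1.43 for HMGA1 and -0.735 for HMGA2, with 3921 TUs above and 4955 below. Counted as matches followed by A, the canonical 3′ UTRs held 3 in IGF2BP1, 2 in LIN28B, 1 in HMGA2 and 0 in HMGA1. In the wider fit, which tests more TUs, the reference moved by 0.628 on the log2 scale. The members past the thresholds moved by about that much. Apart from such moves of the reference, what caused the changes was not tested. Depth limits HMGA2, which rests on 6 RNA-seq reads.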
